A study of Mus musculus with 55 samples.

Results

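The genes described here are 10 secreted proteins of the bone morphogenetic protein (BMP) pathway: the ligands Bmp2, Bmp4, Bmp5, Bmp6, Bmp7, Gdf6 and Gdf7 and the antagonists Grem1, Nog and Chrd. On GRCm38 they are at chr2:133552159-133562885 (Bmp2), chr14:46383520-46390669 (Bmp4), chr9:75775364-75900310 (Bmp5), chr13:38345107-38500302 (Bmp6), chr2:172868012-172940321 (Bmp7), chr4:9844372-9862345 (Gdf6), chr12:8297918-8301954 (Gdf7), chr2:113746164-113758646 (Grem1), chr11:89300638-89302332 (Nog) and chr16:20733127-20742384 (Chrd). They were taken by name from the 47937 genes counted by RNA-seq in whole pancreatic islets, and each of the 10 had at least 1 read. The 16 libraries came from male C57B6/J mice of 3 genotypes at 8 and 25 weeks of age: wild type (3 libraries at each age), Eed heterozygous (3 at 8 weeks and 2 at 25 weeks) and βEedKO (3 at 8 weeks and 2 at 25 weeks). βEedKO mice carry Eed flox/flox alleles and a rat insulin promoter Cre (RIP-Cre), so that Eed, a core subunit of the Polycomb repressive complex PRC2, is deleted in β cells while the other cells of the islet keep it. Islets were isolated with collagenase, picked by hand and cultured before RNA extraction, and a library holds the islets of 1 or more animals. Each βEedKO library at 25 weeks pooled islets of more animals than any wild-type library did. Pool size thus differs together with genotype at that age, and its part in the differences given here was not tested. The paper reports overt diabetes in all knockout mice at the older age, while the younger ones were glucose tolerant. Diabetes thus also differs together with genotype at the older age. Its part in the differences between genotypes or ages given here was not tested. RIP-Cre alone was not among the groups compared here. A chromatin-state map of wild-type islets was used for the start sites.

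BMP ligands are dimeric growth factors that bind pairs of type I and type II serine/threonine kinase receptors, and the receptors phosphorylate Smad1, Smad5 and Smad9, which with Smad4 switch on targets such as the Id genes. Secreted antagonists, among them Gremlin (Grem1), Noggin (Nog) and Chordin (Chrd), bind the ligands and keep them from their receptors. Many genes of this pathway act in development and are classical targets of Polycomb, which places the repressive mark H3K27me3. A bivalent promoter carries H3K27me3 together with H3K4me3, a mark of active or poised start sites.

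In wild-type islets most of the members sat in repressed or bivalent chromatin. In the state map, which gives each 200 bp bin 1 of 24 letters, the start sites of Bmp2, Bmp6, Bmp7, Gdf6, Gdf7 and Nog were in state L (bivalent with high H3K4me3), those of Bmp4 and Grem1 in state M (bivalent with high H3K27me3) and that of Bmp5 in state N (Polycomb repressed). Chrd alone among the 10 started in an active state, B. State L or M covered the start of 8 of the 10 members and of 17.2% of the 25640 counted genes with a state. States K to O, the bivalent and Polycomb repressed classes, covered 9 of 10 members and 35.6% of counted genes. The Bmp6 and Gdf7 starts changed from L to M when the commonest state within 1 kb was taken in place of the bin at the start, and the others kept their letter.

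**Figure D1:**
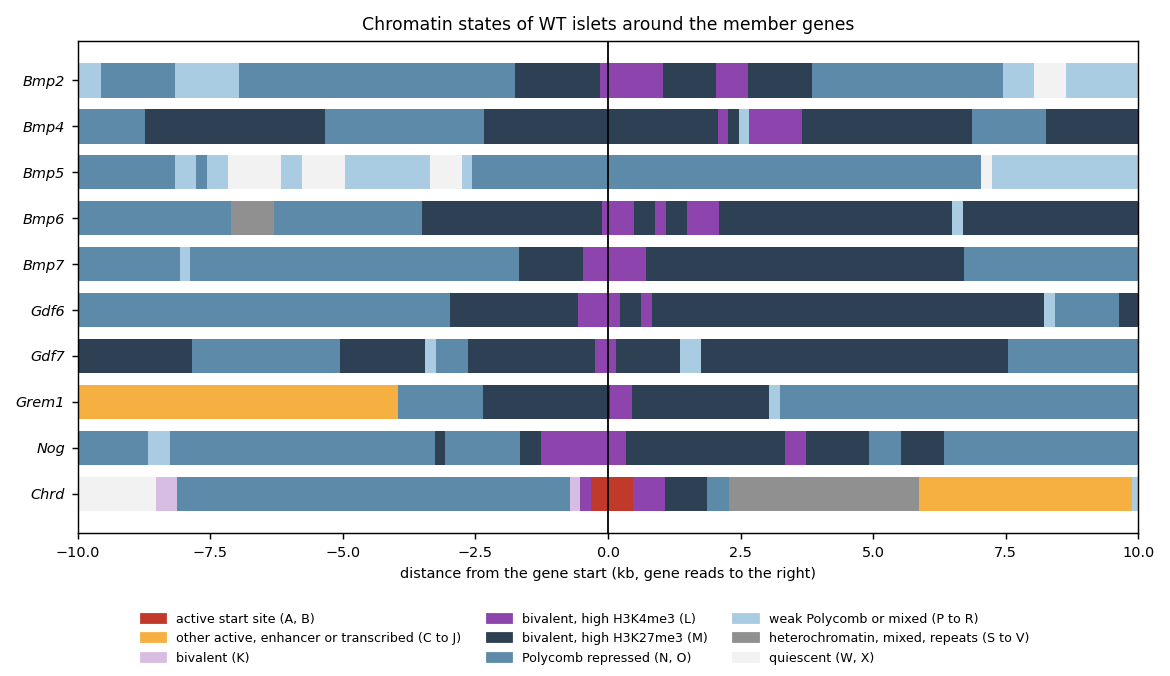
Chromatin states of wild-type islets within 10 kb on either side of the start of each member, with distance in kb along the direction of transcription on the x axis, 1 row per gene and colours for groups of states. Purple (L) or dark blue (M) bivalent stretches cover the start of 8 members, and Bmp5 starts in a Polycomb repressed state. Chrd has a narrow active stretch (red) at its start, with short bivalent stretches beside it and Polycomb repressed chromatin (O) farther upstream.

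State M made up 65.8% of the window of 10 kb on either side of the Gdf7 start, 64.7% of that of Bmp4, 59.5% of that of Bmp6 and 52.9% of that of Gdf6. It made up 19% of the Bmp2 window and was absent from that of Bmp5. In the gene body the commonest state was M for Bmp4, Gdf6, Gdf7 and Nog, N for Bmp2, Bmp6 and Grem1, O for Bmp7, the weak Polycomb state P for Bmp5, and the transcribed state I for Chrd.

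RefSeq promoter sequences (GRCm38.p6, from 250 bases before to 50 bases after the start) were held for 6 members: Bmp4, Bmp5, Bmp6, Gdf7, Grem1 and Chrd. Those of 4 members are printed 5′ to 3′ in the direction of transcription, with each CG dinucleotide in capitals, because they span the states found at the starts. They show the CG-dense bivalent starts of Grem1 and Bmp6, the CG-poor Polycomb repressed start of Bmp5 and the CG-dense active start of Chrd.
Grem1, chr2:113758599-113758898, minus strand: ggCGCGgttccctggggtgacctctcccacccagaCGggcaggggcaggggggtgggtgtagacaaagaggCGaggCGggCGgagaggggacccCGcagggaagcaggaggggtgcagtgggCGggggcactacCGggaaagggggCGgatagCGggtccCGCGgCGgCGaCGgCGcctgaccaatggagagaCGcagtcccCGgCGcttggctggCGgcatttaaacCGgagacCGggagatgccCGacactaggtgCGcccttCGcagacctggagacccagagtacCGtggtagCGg
Bmp6, chr13:38345466-38345765, plus strand: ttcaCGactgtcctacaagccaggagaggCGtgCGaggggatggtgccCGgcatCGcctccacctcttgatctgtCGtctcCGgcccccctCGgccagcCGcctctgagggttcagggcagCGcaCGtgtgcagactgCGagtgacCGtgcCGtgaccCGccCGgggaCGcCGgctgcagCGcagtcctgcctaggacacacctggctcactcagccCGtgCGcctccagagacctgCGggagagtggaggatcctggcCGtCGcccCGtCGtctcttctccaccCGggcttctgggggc
Bmp5, chr9:75775115-75775414, plus strand: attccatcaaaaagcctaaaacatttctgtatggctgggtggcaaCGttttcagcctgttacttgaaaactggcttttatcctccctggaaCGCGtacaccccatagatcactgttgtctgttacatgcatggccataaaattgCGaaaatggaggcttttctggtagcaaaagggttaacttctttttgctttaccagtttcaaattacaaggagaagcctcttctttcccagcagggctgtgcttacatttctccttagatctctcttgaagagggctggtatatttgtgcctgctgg
Chrd, chr16:20732877-20733176, plus strand: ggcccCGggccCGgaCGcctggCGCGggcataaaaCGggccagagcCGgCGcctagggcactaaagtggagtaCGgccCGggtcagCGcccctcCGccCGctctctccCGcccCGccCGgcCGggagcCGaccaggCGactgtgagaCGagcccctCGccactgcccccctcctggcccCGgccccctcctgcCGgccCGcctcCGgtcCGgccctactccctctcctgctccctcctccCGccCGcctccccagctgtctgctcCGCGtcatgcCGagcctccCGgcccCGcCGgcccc
CG dinucleotides numbered 28 in the Grem1 window, 27 in that of Bmp6, 34 in that of Chrd and 4 in that of Bmp5, beside 26 for Gdf7 and 12 for Bmp4. The median over all 32851 promoters of this length was 7, with quartiles of 3 and 20. The RefSeq start of Bmp6 lies inside the Gencode gene, downstream of the start used for its state. The letters TATAAA, searched on both strands, were in none of the 6 windows and in 13.6% of all promoters.

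Libraries held from 4645393 to 22925359 counted reads. The shallowest was wild-type replicate 2 at 25 weeks, where 1 read equals 0.218 CPM (counts scaled to a library of a fixed size). Eed itself stood at 23.9 to 33.1 CPM in wild type, 17.1 to 20.5 in heterozygous and 13.4 to 14.9 in βEedKO libraries at 8 weeks, and at 19.3 to 28.3, 16.3 to 16.9 and 14.3 to 15.6 CPM at 25 weeks, and averaged over both ages it was lower in βEedKO (log2 fold change -0.86 ± 0.16, adjusted p = 0.0110). The 8 β cell markers, led by the insulin genes, summed to 122324 to 218493 CPM in wild type and 13874 to 17204 CPM in βEedKO islets at 25 weeks, and 7 of the 8 were called lower there. In bulk islets fewer cells of a type and less RNA per cell cannot be told apart. The libraries also differed within a genotype: 7 interferon-induced genes (Ifit1, Ifit3, Isg15, Oas2, Rsad2, Irf7 and Usp18) summed to 3022 to 4314 CPM in wild-type replicates 3 and 4 and βEedKO replicates 4 and 5 at 8 weeks, and to 50.4 to 115 CPM in the other 12 libraries.

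Levels of the members were low. On the scale of RPKM (CPM per kilobase of exon), which allows genes to be compared, Chrd led in wild type with a mean of 1.01 RPKM at 8 weeks and 1.33 at 25 weeks, followed by Bmp7 at 0.927 and 1.30. In wild type at 25 weeks Bmp6 came next at 0.570 RPKM, and its range overlapped that of Bmp7 (0.412 to 2.52) but not that of Bmp4, the next below at 0.200. Bmp5, Bmp2, Gdf7 and Grem1 followed at 0.147 to 0.0185 RPKM, each overlapping the next, and Gdf6 and Nog had no read. In βEedKO islets at 25 weeks the order was Bmp7 (3.75 RPKM), Chrd (2.32), Bmp2 (1.85), Bmp6 (1.13), Bmp4 (0.887), Gdf7 (0.781), Grem1 (0.353), Bmp5 (0.163), Nog (0.114) and Gdf6 (0.0380). Bmp2 had thus moved from the sixth to the third place. Neighbours whose ranges did not overlap in that order were Bmp7 and Chrd, Bmp6 and Bmp4, and Gdf7 and Grem1.

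**Figure D2:**
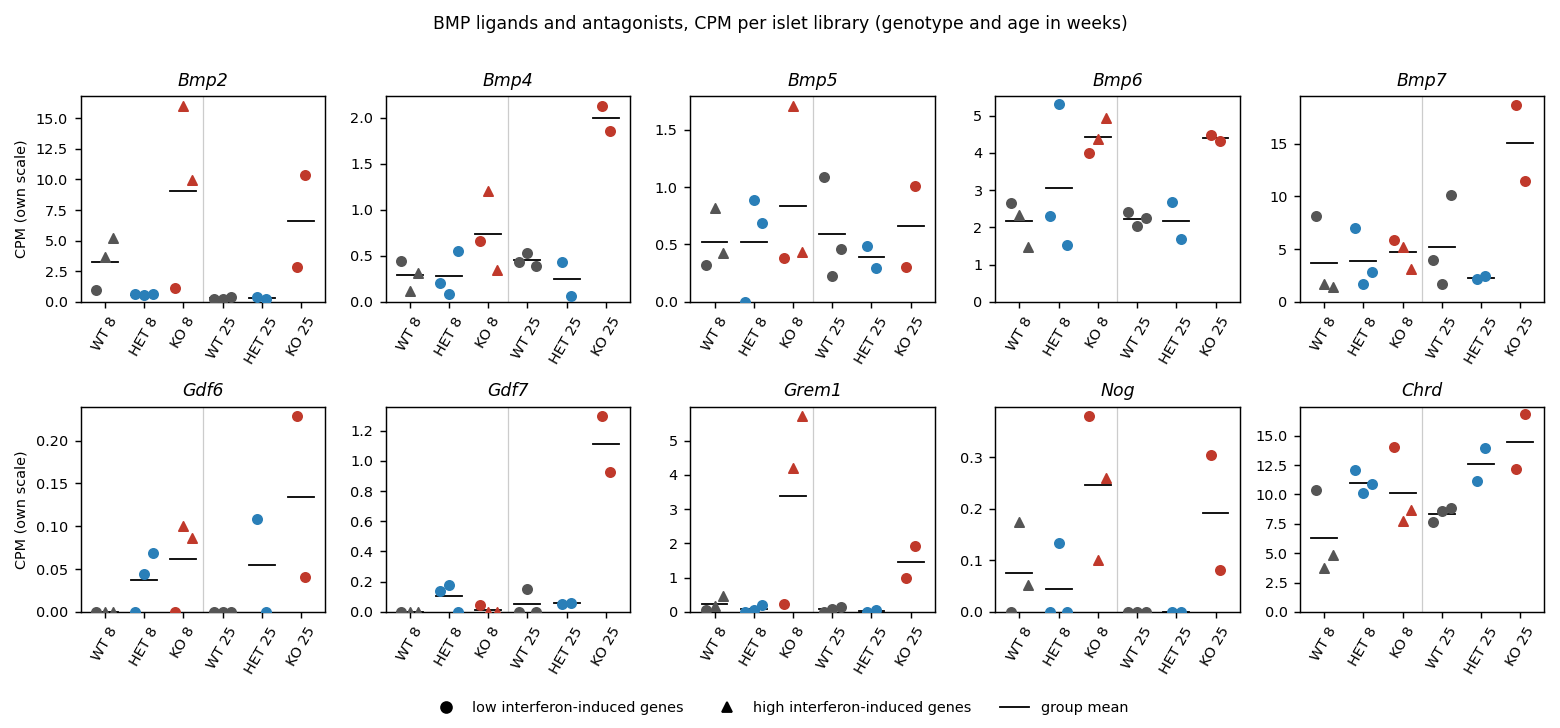
CPM of the 10 members in each of the 16 islet libraries, by genotype and age in weeks, with each panel on its own linear scale from 0. Points are libraries, triangles mark the 4 libraries with high interferon-induced genes, and lines are group means. The βEedKO points of Bmp4, Bmp7 and Gdf7 at 25 weeks stand above all wild-type and heterozygous points, and the high Bmp2 and Grem1 points at 8 weeks are triangles. Bmp4 and Gdf7 passed the filter on low counts only through βEedKO libraries, which in part set their place. In 24.7% of all tested genes both βEedKO libraries of 25 weeks stood above the wild-type libraries of that age.

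βEedKO was compared with wild type at each age with edgeR's quasi-likelihood test and Benjamini-Hochberg adjustment over all 18685 genes that passed a filter on low counts, and a gene was called at an adjusted p under 0.05. Of the 10 members 8 passed that filter, and Gdf6 and Nog did not. At 25 weeks 1 of the 8, Bmp2, was called, and it was higher in βEedKO; 4.58% of all tested genes were called higher and 6.6% in either direction. Bmp4, Gdf7 and Grem1 reached the count minimum only through βEedKO libraries: in wild type fewer than 2 of the 6 libraries reached 0.578 CPM. Their place above wild type was thus in part set by the filter. Counts out of 5 members leave them out, and counts out of 8 members include them. The other 5 tested members, Bmp2, Bmp5, Bmp6, Bmp7 and Chrd, reached it on wild-type libraries alone, as did 16719 of the 18685 genes. Their log2 fold changes at 25 weeks ran from 0.24 to 4.42. In 4 of the 5 both βEedKO libraries stood above all wild-type libraries, as they did in 24.7% of all tested genes and in 21.1% of those 16719, and 2 of the 5 had an unadjusted p under 0.05, beside 20.3% and 18.3%. At 8 weeks none of the 8 tested members was called (0.434% of tested genes were), and 1 of the 5 had an unadjusted p under 0.05, beside 7.87% of all tested genes and 6.72% of the 16719. DESeq2 called 1 of the 8 at 8 weeks, Grem1, and it called 358 genes higher and 35 lower over all genes where edgeR called 80 and 1.

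**Figure D3:**
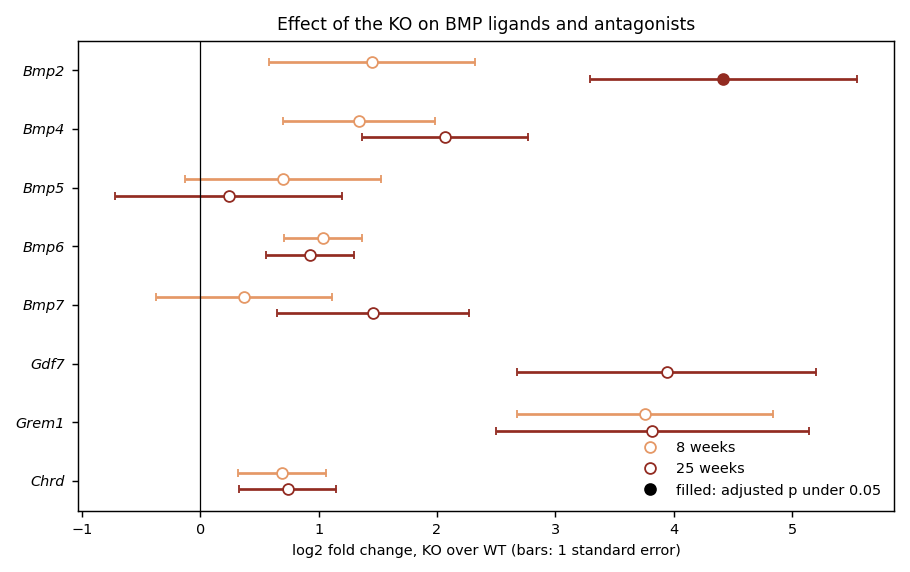
Fitted log2 fold change of βEedKO over wild type for the members that passed the filter, with bars of 1 standard error, at 8 weeks (light) and 25 weeks (dark). The filled point, Bmp2 at 25 weeks, has an adjusted p under 0.05, and the other points, also to the right of 0, do not; Bmp4, Gdf7 and Grem1 passed the filter only through βEedKO libraries. Gdf7 at 8 weeks is left out because the groups held 1 and 0 reads.

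Among the ligands, Bmp2, a bone- and cartilage-inducing factor of the Bmp2/4 subgroup, gave the largest fitted rise at 25 weeks. At 25 weeks Bmp2 stood at 0.218, 0.226 and 0.387 CPM in the wild-type libraries, 0.381 and 0.233 in the heterozygous and 2.82 and 10.3 in the βEedKO libraries. Both βEedKO libraries were above every wild-type and heterozygous library of that age, and they differed between themselves. The log2 fold change over wild type was 4.42 ± 1.13 (SE), adjusted p = 0.0440. The interferon-induced genes were low in all 7 libraries of this age. The call was lost without any 1 of 8 libraries: wild-type replicates 3 and 4 and βEedKO replicate 5 at 8 weeks, and all 5 wild-type and βEedKO libraries at 25 weeks (adjusted p = 0.0556 to 0.261), while the log2 fold change stayed between 3.21 and 5.05 over all 22 alternatives. With the summed acinar markers as a covariate the adjusted p was 0.0518.

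At 8 weeks Bmp2 stood at 0.952, 3.66 and 5.24 CPM in wild-type replicates 1, 3 and 4, at 0.627, 0.532 and 0.620 CPM in the heterozygous libraries, and at 1.14, 16.0 and 9.95 CPM in βEedKO replicates 1, 4 and 5. The 4 high values are those of the 4 libraries with high interferon-induced genes, and within either class of library the βEedKO values exceeded the wild-type values. The difference was not called, with a log2 fold change of 1.45 (adjusted p = 0.774). Within the libraries with high interferon-induced genes it was 1.54 (adjusted p = 0.256), and between the 1 wild-type and 1 βEedKO library with low levels it was 0.27, where the spread was taken from the other groups. The part of the interferon-induced genes in the level of Bmp2 was not tested.

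**Figure D4:**
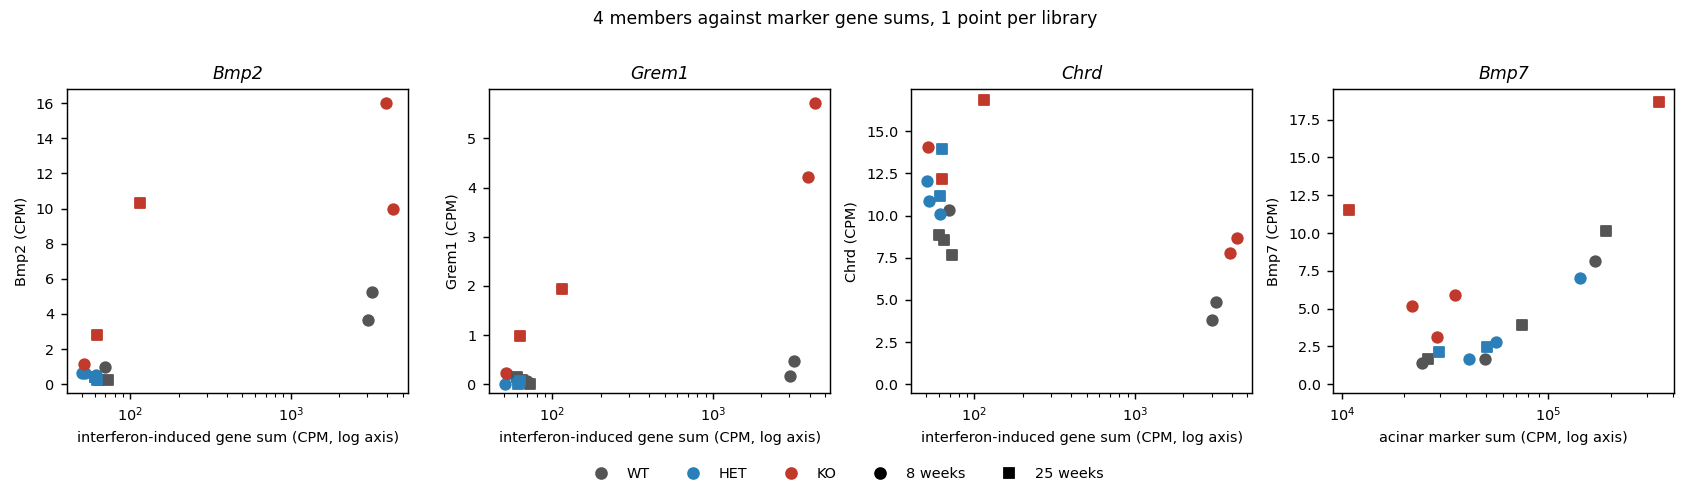
CPM of Bmp2, Grem1 and Chrd against the summed CPM of 7 interferon-induced genes, and of Bmp7 against the summed CPM of 7 acinar markers, with 1 point per library and log x axes. Colours are genotypes, circles are 8 weeks and squares 25 weeks. At 8 weeks the 4 libraries at 3022 CPM or more of interferon-induced genes hold the highest Bmp2 and the lowest Chrd of their genotypes, Grem1 reaches 4.21 and 5.71 CPM in the βEedKO pair among them, and the 3 wild-type and heterozygous libraries with the largest acinar sums have the highest Bmp7 of those genotypes.

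Bmp4, the close relative of Bmp2 that patterns many organs, stood at 0.436, 0.527 and 0.387 CPM in wild type, 0.436 and 0.0583 CPM in heterozygous and 2.13 and 1.86 CPM in βEedKO islets at 25 weeks. The βEedKO libraries lay apart from the other 5, but Bmp4 passed the filter only through βEedKO libraries, which in part set this place. The log2 fold change of 2.07 ± 0.70 was not called (adjusted p = 0.118). At 8 weeks the levels were 0.116 to 0.444 CPM in wild type and 0.346 to 1.20 CPM in βEedKO, which overlapped. With the heterozygous libraries added to the control, Bmp4 was called at 25 weeks (log2 fold change 2.44, adjusted p = 0.0273).

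Bmp6, a ligand best known for its control of hepcidin and iron in the liver, had the smallest standard errors of the members in the comparison of βEedKO with wild type at either age. It stood at 2.66, 2.33 and 1.48 CPM in wild type and 3.98, 4.36 and 4.93 CPM in βEedKO islets at 8 weeks. At 25 weeks it stood at 2.40, 2.03 and 2.24 CPM in wild type and 4.49 and 4.32 CPM in βEedKO islets. All 5 βEedKO libraries were above all 6 wild-type libraries, a pattern that 2.98% of tested genes showed in this direction and that no other member showed; at 8 weeks alone it was likewise the 1 member of 8 with groups apart, beside 6.54% of tested genes. The heterozygous libraries ranged from 1.51 to 5.32 CPM and overlapped both. The log2 fold change was 1.04 ± 0.33 at 8 weeks (adjusted p = 0.371) and 0.93 ± 0.37 at 25 weeks (adjusted p = 0.185), and neither was called. Txndc5, on the opposite strand, shares 224 bp of exon with Bmp6, and whether reads were counted by strand is not stated. Txndc5 stood at 92.4 to 116 CPM in wild type and 128 and 140 CPM in βEedKO islets at 25 weeks. At 8 weeks it stood at 135 to 190 and 141 to 213 CPM, which overlapped. The part of Txndc5 reads in the Bmp6 counts was not tested.

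Bmp7, a ligand needed for kidney and eye development, differed among libraries of 1 genotype. In the 11 wild-type and heterozygous libraries it ranged from 1.38 to 10.1 CPM, and the 3 with the most acinar marker RNA, at 142442 to 190381 CPM for 7 markers, held the 3 highest values: heterozygous replicate 1 (7.04 CPM) and wild-type replicate 1 (8.12 CPM) at 8 weeks and wild-type replicate 4 (10.1 CPM) at 25 weeks. The other 8 libraries, at 24332 to 74136 CPM of acinar markers, stood at 1.38 to 3.92 CPM of Bmp7. In βEedKO islets Bmp7 stood at 5.88, 5.17 and 3.12 CPM at 8 weeks, with acinar sums of 21927 to 35330 CPM. At 25 weeks it stood at 18.6 CPM in replicate 2 and 11.5 CPM in replicate 3, where the acinar sums were 342079 and 10797 CPM, the highest and the lowest of all libraries. The log2 fold change at 25 weeks was 1.46 ± 0.81 (adjusted p = 0.351), and 1.98 (adjusted p = 0.117) with the acinar sum as a covariate. At 8 weeks it was 0.37 (adjusted p = 0.964), and 1.16 (adjusted p = 0.655) with the covariate, and none of these was called.

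Bmp5 showed no separation at either age. It stood at 0.226 to 1.09 CPM in wild type and 0.304 and 1.01 CPM in βEedKO islets at 25 weeks, with a log2 fold change of 0.24 ± 0.96 (adjusted p = 0.928). The antisense gene Gm26903 shares 1878 bp of exon with Bmp5 and itself had at most 1 read in a library.

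Gdf7, a ligand of the roof plate of the spinal cord, was nearly silent outside the βEedKO islets of 25 weeks. No read was counted in the 3 wild-type libraries at 8 weeks, 1 in the 3 βEedKO libraries of that age and 8 in the 5 heterozygous libraries. At 25 weeks the wild-type libraries held 2 reads in all and the βEedKO libraries 40, at 1.29 and 0.928 CPM. The ratio of these pooled levels was 16.2, with a 95% interval from 4.21 to 139 that covers counting error and nothing else. Gdf7 passed the filter only through βEedKO libraries, and in the edgeR fit its log2 fold change of 3.94 ± 1.26 was not called (adjusted p = 0.116). It was called with the interferon-induced sum as a covariate (4.05, adjusted p = 0.0462) and when the heterozygous libraries joined the control (4.06, adjusted p = 0.0195). Gdf6, which acts with Gdf5 and Gdf7 in joints, had 0 reads in the 6 wild-type, 4 in the 5 heterozygous and 7 in the 5 βEedKO libraries. Taking 3 reads as the limit that the empty wild-type group allows, the observed pooled βEedKO level of Gdf6 was 2.13-fold that limit over both ages. The counting error of the 7 βEedKO reads and the spread between libraries are not in this value. In an edgeR fit without the filter Gdf6 was not called over both ages (adjusted p = 0.267).

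Among the antagonists, Grem1, which binds Bmp2 and Bmp4, was at 0, 0.0752 and 0.155 CPM in wild type, 0 and 0.0583 CPM in heterozygous and 0.989 and 1.94 CPM in βEedKO islets at 25 weeks. At 8 weeks it stood at 0.0634, 0.174 and 0.477 CPM in wild-type replicates 1, 3 and 4, at 0 to 0.207 CPM in the heterozygous and at 0.237, 4.21 and 5.71 CPM in βEedKO replicates 1, 4 and 5. The βEedKO library with low interferon-induced genes thus stood at 8 weeks near the wild-type libraries and the other two far above them. The log2 fold change was 3.76 ± 1.08 at 8 weeks (adjusted p = 0.287) and 3.82 ± 1.32 at 25 weeks (adjusted p = 0.126). Neither was called. Without βEedKO replicate 1 of 8 weeks both were (adjusted p = 0.0375 at 8 and 0.0289 at 25 weeks). The βEedKO libraries then left at 8 weeks both have high interferon-induced genes. Calls over all genes rose too, from 81 to 135 at 8 weeks and from 1234 to 1609 at 25 weeks. Both were also called with the heterozygous libraries pooled into the control (0.0148 and 0.0161) and with the interferon-induced sum as a covariate (0.0432 and 0.0136). Calls over all genes rose in these settings as well. Grem1 passed the filter only through βEedKO libraries. The 25-week wild-type group held 3 reads of Grem1 in all and the βEedKO group 61, a ratio of pooled levels of 16.5 (95% interval 5.39 to 82.3, counting error only).

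Chrd, which binds ligands until it is cut by proteases of the Bmp1/Tolloid family, had the highest level of Grem1, Nog and Chrd in wild type. At 25 weeks it stood at 7.63, 8.58 and 8.82 CPM in wild type, 11.2 and 13.9 CPM in heterozygous and 12.2 and 16.8 CPM in βEedKO islets, so that wild type lay below both other genotypes. At 8 weeks it stood at 10.3, 3.78 and 4.87 CPM in wild-type replicates 1, 3 and 4 and at 14.0, 7.77 and 8.65 CPM in βEedKO replicates 1, 4 and 5. In contrast to Bmp2, the lower values of each group were in the libraries with high interferon-induced genes, and βEedKO exceeded wild type in either class. The log2 fold change was 0.69 ± 0.37 at 8 weeks (adjusted p = 0.728) and 0.74 ± 0.41 at 25 weeks (adjusted p = 0.353). Thpo, on the opposite strand, shares 239 bp of exon with Chrd and had 9 to 113 reads in a library. At 8 weeks it stood at 3.11, 0.523 and 0.74 CPM in wild-type replicates 1, 3 and 4 and 5.36, 1.05 and 1.90 CPM in βEedKO replicates 1, 4 and 5. At 25 weeks it stood at 2.63 to 3.92 CPM in wild type, 3.81 and 5.13 CPM in heterozygous and 2.4 and 3.96 CPM in βEedKO islets, which overlapped. The part of Thpo reads in the Chrd counts was not tested.

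Nog, which in embryos guards the notochord and joints against BMP, had 4 reads in the 6 wild-type, 3 in the 5 heterozygous and 19 in the 5 βEedKO libraries. Each βEedKO library held at least 2 reads, from 0.0807 to 0.380 CPM, and the wild-type libraries held 0 to 0.174 CPM, so the ranges overlapped. The ratio of the pooled levels, βEedKO to wild type over both ages, was 4.34 (95% interval 1.44 to 17.5, counting error only).

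Because Bmp6 showed nearly the same separation at both ages, the mean of the 2 βEedKO effects was also tested, a comparison chosen after the values were seen. It called 3 of the 8 members higher, beside 5.45% of tested genes called higher. Bmp2 (2.94 ± 0.71, adjusted p = 0.0330) and Bmp6 (0.99 ± 0.25, adjusted p = 0.0383) were called among the 5 members that reached the count minimum on wild-type libraries alone. The other was Grem1 (3.79 ± 0.85, adjusted p = 0.0225), which passed the filter only through βEedKO libraries. Bmp4 fell just short (1.71 ± 0.48, adjusted p = 0.0561), as did Chrd by more (0.72 ± 0.28, adjusted p = 0.156). With the replicate number as a block Bmp6 was no longer called (adjusted p = 0.157), while Grem1 and Bmp2 were (0.0430 and 0.0347). Bmp6 was also not called in the fit of all 6 groups (0.0579) or without the filter (0.105). Leaving out 1 library ended the call of Grem1 for wild-type replicate 3 and βEedKO replicates 4 and 5 at 8 weeks and for wild-type replicates 3 and 4 and βEedKO replicate 3 at 25 weeks (adjusted p = 0.0510 to 0.0826). The call of Bmp2 was lost without the same libraries, wild-type replicate 4 at 8 weeks or wild-type replicate 2 at 25 weeks (0.0513 to 0.141). That of Bmp6 was lost without any 1 of wild-type replicates 3 and 4 and βEedKO replicates 4 and 5 at 8 weeks, wild-type replicates 3 and 4 at 25 weeks or either βEedKO library of 25 weeks (0.0754 to 0.127). With only the low-interferon libraries at 8 weeks, 1 of each genotype, none of the 3 was called (0.216 to 0.448).

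Markers of other islet and pancreas cells moved with genotype too. Of 9 mesenchymal markers 9 had a fold change above 0 at either age, and at 25 weeks 4 (Col1a1, Col1a2, Dcn and Pdgfra) were called higher; their sum was 172 to 258 CPM in wild type and 419 to 546 CPM in βEedKO islets. Of 7 duct markers 3 (Krt19, Spp1 and Sox9) were called higher, with sums of 266 to 326 and 587 to 731 CPM. Of 6 leukocyte markers 1 (Ptprc) was called higher, with sums of 82.3 to 159 and 134 to 399 CPM. At 8 weeks no marker of these lists was called, and the mesenchymal sum was 159 to 213 CPM in wild type and 200 to 341 CPM in βEedKO islets. No marker of these 3 lists was without reads in a whole group. Mesenchymal cells are a known source of BMP ligands and Gremlin, and the part of these cells in the levels given here was not tested.

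By state of the start site, the members' fold changes can be set beside those of other genes of the same state. At 25 weeks the 4 tested members in state L (Bmp2, Bmp6, Bmp7 and Gdf7) had log2 fold changes of 0.93 to 4.42, beside a median of 0.94 over 2430 tested genes in state L, of which 14.2% were called higher. The pair in state M (Bmp4 and Grem1) had 2.07 and 3.82, beside a median of 2.08 over 869 genes, of which 27.2% were called higher. Bmp5, in state N, had 0.24 beside a median of 1.35 over 508 genes, and Chrd, in state B, had 0.74 beside a median of -0.05 over 2880 genes. These medians include genes that passed the filter only through βEedKO libraries, as Bmp4, Gdf7 and Grem1 did. Over the genes that reached the count minimum on wild-type libraries alone the median was 0.68 in state L (2106 genes, 12.2% called higher), 1.27 in M (531 genes, 16.4%), 1.03 in N and -0.05 in B.

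Heterozygous libraries gave no called member at either age, and edgeR called no gene at all there (0% of 18828 tested), where DESeq2 called 413 genes at 8 weeks and 3 at 25 weeks. At 8 weeks 3 of 8 members had an unadjusted p under 0.05, beside 14.6% of tested genes. Gdf7, with 6 heterozygous reads and 0 wild-type reads, was 1 of the 3. At 25 weeks no member had such a p, beside 1.12%, and DESeq2 called no member at either age. At 8 weeks Bmp2 had the largest of these differences among the members with reads in both groups, at -2.46 on the log2 scale (adjusted p = 0.261). Its 3 heterozygous libraries all had low interferon-induced genes, and wild-type replicate 1, with low levels too, stood at 0.952 CPM beside 0.532 to 0.627 CPM. Bmp2 was the 1 member of 8 whose heterozygous libraries all lay below wild type, beside 9.09% of tested genes. Chrd was at 12.1, 10.1 and 10.9 CPM in the heterozygous libraries of 8 weeks (log2 fold change 0.80, adjusted p = 0.311), above wild-type replicates 3 and 4 and about level with replicate 1; without that replicate it was called (adjusted p = 0.0413), but so were 85 genes higher and 516 lower, and the 2 wild-type libraries then left at 8 weeks both have high interferon-induced genes. At 25 weeks Chrd was the 1 member of 8 whose heterozygous libraries lay above all wild-type libraries, as in 8.91% of tested genes.

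The difference of the βEedKO effect between the ages was tested as an interaction, and none of the 8 members was called, beside 0.198% of tested genes; none had an unadjusted p under 0.05 (7.76% of tested genes did), and DESeq2 called none. The largest among members with reads in every group was that of Bmp2, at 2.97 (adjusted p = 0.664). Between 25 and 8 weeks in wild type no member and no gene was called by edgeR (0% of tested genes; DESeq2 called 137 genes), with 1 of 8 members at an unadjusted p under 0.05 beside 10.2% of tested genes. That member was Bmp2, with a log2 difference of -3.50 (adjusted p = 0.489), and 2 of the 3 wild-type libraries at 8 weeks had high interferon-induced genes. Within βEedKO no member was called between the ages, beside 1.5% of tested genes. Of the 8, 1 had an unadjusted p under 0.05, beside 14.1%. It was Gdf7, which passed the filter only through βEedKO libraries. Of the 5 members that reached the count minimum without them 0 had such a p, beside 13.1% of genes that did so. Of the 5 members that reached the count minimum on wild-type libraries alone 1, Bmp7, stood in both libraries of 25 weeks above all 3 of 8 weeks, beside 14.9% of such genes and 17.3% of all tested genes. Bmp4 and Gdf7 did so too, but they passed the filter through βEedKO libraries.

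The rest of the pathway was described with a list of 51 genes, of which 45 passed the filter. At 25 weeks 5 of the 45 were called higher and 1 lower, beside 4.58% and 2.02% of all tested genes. None of 11 tested receptors and co-receptors was called. Their log2 fold changes were -0.14 for Bmpr1a (adjusted p = 0.824), -0.21 for Bmpr2 (0.712) and -0.26 for Acvr1 (0.596), and over all 11 they ran from -0.65 for Bmpr1b (0.468) to 1.57 ± 0.65 for the co-receptor Rgma (0.200). In 2 of the 11 the βEedKO libraries lay above all wild-type libraries and in 3 below them. All 11 reached the count minimum on wild-type libraries alone. Of the 16719 genes that did so, 21.1% lay above in this way and 2944 genes lay below. None of 6 Smads was called either. The signal-carrying Smads gave 0.06 for Smad1 (adjusted p = 0.957), -0.09 for Smad5 (0.910) and 1.67 ± 0.82 for Smad9 (0.293). Bmpr1b, Rgma and Smad9 are named because their values were the extremes. Bmpr1a was at 12.1 to 14.5 RPKM in wild type and 12.2 and 13.5 RPKM in βEedKO islets at 25 weeks, above every member, the highest of which reached 4.64 RPKM.

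**Figure D5:**
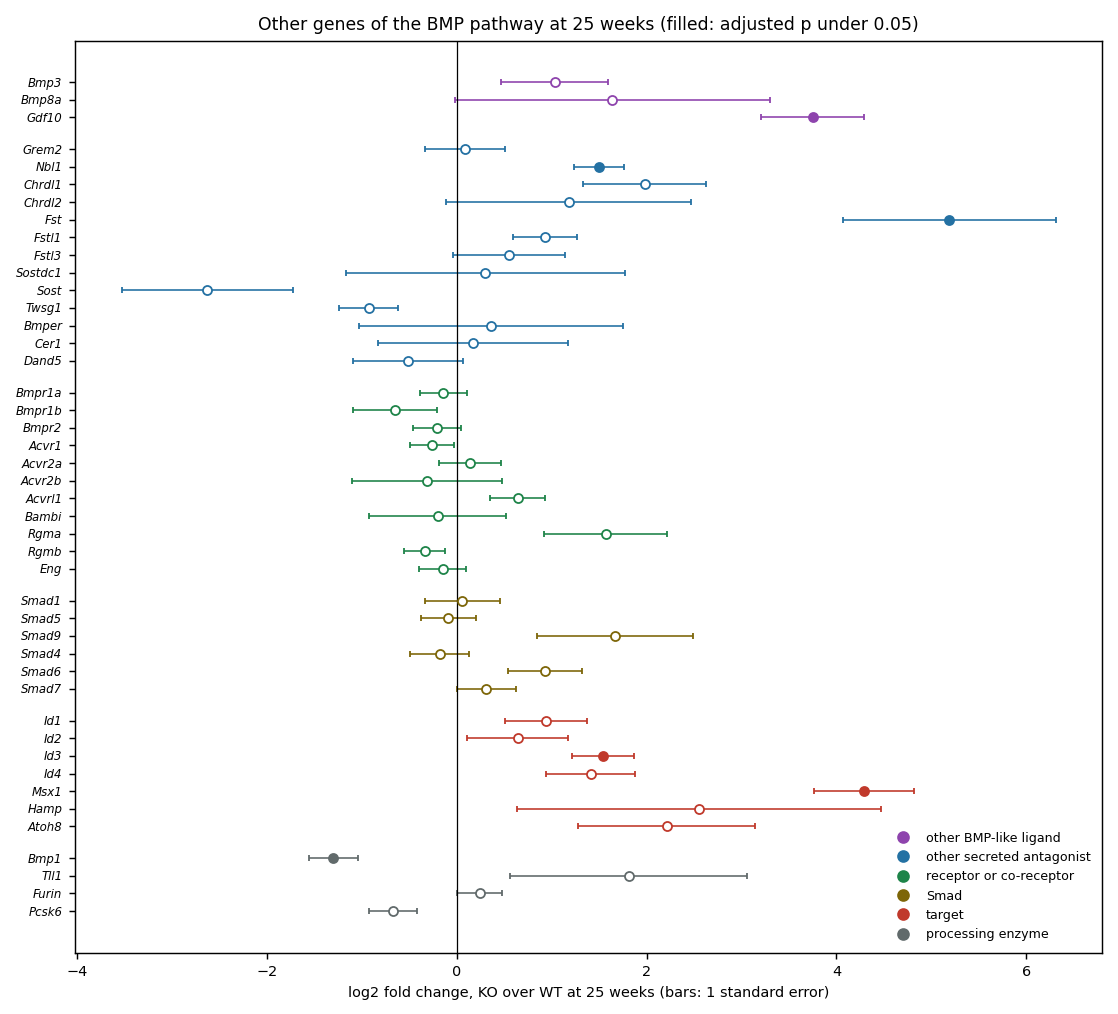
Fitted log2 fold change of βEedKO over wild type at 25 weeks for 44 of the 45 tested pathway genes, with bars of 1 standard error, grouped and coloured by role. Filled points have an adjusted p under 0.05: Gdf10, Nbl1, Fst, Id3 and Msx1 lie to the right of 0 and Bmp1 to the left, and no receptor or Smad is filled; those reach from -0.65 (Bmpr1b) to 1.67 (Smad9). Msx2, with no wild-type read at this age, is left out.

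Of the 8 tested targets of the pathway 2 were called at 25 weeks, both higher, beside 4.58% of all tested genes called higher. These 2, Msx1 and Id3, start in state L, where 14.2% of tested genes were called higher. The part of BMP signalling in the levels of the targets was not tested. Msx2 had no wild-type read at this age and passed the filter only through βEedKO libraries, and the fold changes of the other 7 ran from 0.64 to 4.29. Msx1, a homeobox factor of limb and tooth buds, stood at 0.654, 0.527 and 1.24 CPM in wild type and 11.7 and 22.1 CPM in βEedKO islets (log2 fold change 4.29 ± 0.53, adjusted p = 0.00153). Id3, an inhibitor of basic helix-loop-helix factors, stood at 14.0, 8.43 and 8.12 CPM in wild type and 22.9 and 37.9 CPM in βEedKO islets (1.54 ± 0.33, adjusted p = 0.0230). Its relatives Id1 (0.94, adjusted p = 0.254) and Id2 (0.64, adjusted p = 0.564) were not called. At 8 weeks Id2 stood at 64.8 and 65.3 CPM in the βEedKO libraries with high interferon-induced genes and at 15.9 CPM in the other.

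Among other ligands and antagonists, Gdf10 was at 0.602 to 1.96 CPM in wild type and 21.6 and 16.7 CPM in βEedKO islets at 25 weeks (3.75 ± 0.54, adjusted p = 0.00334). The antagonist Fst (follistatin, which binds activins and some BMPs) was at 0.151 to 0.872 CPM in wild type and 26.9 and 15.7 CPM in βEedKO islets (5.19 ± 1.12, adjusted p = 0.0227). Nbl1, of the Dan family to which Grem1 belongs, was at 16.8 to 23.4 and at 60.1 and 60.9 CPM (1.5 ± 0.26, adjusted p = 0.00745). The gene that fell was Bmp1, a protease that cuts Chordin and no BMP ligand despite its name, from 93.1 to 107 CPM in wild type to 37.9 and 45.1 CPM in βEedKO islets (-1.30 ± 0.26, adjusted p = 0.0168). With the replicate block Fst (adjusted p = 0.0798) and Id3 (0.103) were not called. Bmp1 was not called on library size alone (0.235), and its call was lost without wild-type replicate 3 or 4 or either βEedKO library of 25 weeks (0.0501 to 0.145). That of Fst was lost without any 1 library of 25 weeks (0.0520 to 0.104), that of Id3 without wild-type replicate 3 or 4 or βEedKO replicate 3 (0.0926 to 0.211) or with only the low-interferon libraries at 8 weeks (0.0536), and that of Nbl1 without either βEedKO library (0.0518 and 0.0539). Gdf10 and Msx1 were called at 25 weeks under all 22 alternatives.

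At 8 weeks 2 of the 45 were called, both higher in βEedKO, where 0.428% of all tested genes were: Gdf10 (2.98 ± 0.50, adjusted p = 0.0322) and Msx1 (2.77 ± 0.47, adjusted p = 0.0346). Gdf10 was at 1.14, 0.872 and 0.477 CPM in wild type and 5.79, 4.72 and 9.17 CPM in βEedKO replicates 1, 4 and 5. Msx1 was at 0.634 to 1.11 CPM in wild type and 5.27, 5.02 and 9.43 CPM in the same βEedKO libraries. Both genes were thus high in βEedKO replicate 1, the library in which Bmp2 and Grem1 were low. With the replicate block neither was called (adjusted p = 0.325 and 0.338), nor was any other gene at 8 weeks, and leaving out any 1 of the 3 wild-type libraries, βEedKO replicates 4 or 5 of 8 weeks or either βEedKO library of 25 weeks ended both calls (0.0516 to 0.176), as did wild-type replicate 4 of 25 weeks for Gdf10 and replicate 2 for Msx1. Within the 8-week libraries of high interferon-induced genes the adjusted p was 0.0615 and 0.0727, and with the acinar covariate that of Msx1 was 0.0701. Start sites of 25 of the 50 pathway genes with a state were in L or M.

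Other genes with profiles most like those of the members were sought over all 16 libraries, as the root mean square distance of standardised log2 CPM among 16930 genes (16931 for Bmp5). Nearest to Bmp2 were Samd4 (distance 0.208), Neto2 (0.225) and Gm13889 (0.247), beside median distances of 1.31 to 1.38 over all those genes for the 8 members compared. Nearest to Grem1 were Acan (0.204), Gm3488 (0.253) and Slc6a14 (0.259), and nearest to Gdf7 were Tbx18 (0.226), Wfdc8 (0.241) and Lbx1 (0.257). Bmp7 was most like Gata4 (0.297), B4galnt1 (0.352) and Rhbdf1 (0.390), and Chrd like Slc22a17 (0.288), Zfp653 (0.303) and Dchs1 (0.413). Bmp6 was most like Ntrk3 (0.427), Lhpp (0.454) and Col23a1 (0.471), and Bmp4 like Zfyve28 (0.379), Lhfpl2 (0.381) and Cntn2 (0.398). Bmp5 had the least similar neighbours, Cbwd1 (0.672), Erg (0.739) and Wwtr1 (0.744).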

How the data were processed

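RNA-seq of islets was analysed in 16 libraries of 6 groups. The values the authors deposited are raw read counts by gene, made with TopHat 2.0.13 on GRCm38 and featureCounts of Subread 1.5.0-p1 on Gencode M9; how strand was treated is not stated. Every count column was mapped to a library. Genes were named by identifier from a later Gencode release of the same build (47224 of 47937 matched). The authors deposited the EpicSeg state letters (other unit: no measured level) for bins of 200 bp on 19 autosomes. ChIP-seq tracks, single cells and human samples were not used here.

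Counts were fitted in R 4.3.3 with edgeR 4.0.16 (TMM scaling, filterByExpr by group, quasi-likelihood test, Benjamini-Hochberg adjustment over 18685 genes): wild type and βEedKO in 1 fit of 11 libraries, heterozygous in a fit of all 16 (18828 genes). DESeq2 1.42.0 was an alternative. A gene was taken to reach the count minimum on wild-type libraries alone when 2 of those 6 libraries reached the filter's level, 0.578 CPM; this split was added after the values were seen. CPM use the TMM factors of the 16 libraries and RPKM the summed exon length. The standard error is the absolute log2 fold change over the square root of F. Intervals cover counting error only, a floor of 3 reads covers that of the empty group alone, and PCR duplicates are not told apart. The test was tried on simulated counts with known changes before use. Where libraries came from 1 or few animals, p-values measure the spread between these libraries only. The number of animals pooled in a library was not a term in any fit.

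Named genes are the 10 members, Eed, 8 fixed pathway genes, up to 10 called pathway genes of smallest adjusted p and the 3 nearest profiles of each member that passed the filter. The members and lists were chosen with earlier results of these data known. The 7 interferon-induced genes, the averaged comparison, the covariates and the splits by interferon-induced genes were chosen after seeing these data.

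Same-numbered wild-type and βEedKO libraries of 1 age deviated together from their group means, with correlations of 0.236 to 0.533 in 4 pairs. In 11 pairs of different numbers they were -0.576 to 0.526. The labels do not say what a number marks. Since these ranges overlap, the correlations do not settle whether the numbers pair the libraries. The main fits used no block, and the replicate number was a block only as an alternative. The replicate block is given where it changed a call.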

Additional observations from a re-analysis of the deposited data

How the results depend on the processing

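Of 22 alternatives (scaling, filter, DESeq2, block, pooled control, fit of all groups, covariates, splits and libraries left out), Bmp2 was called at 25 weeks in 13, and its log2 fold change kept its sign in all of them. The counts of called members given here include Bmp4, Gdf7 and Grem1, which passed the filter only through βEedKO libraries. The count of called members at 25 weeks was 1 and became 4 with wild type and heterozygous pooled, 2 with only the 8-week libraries of high interferon-induced genes, 0 with the acinar covariate, 3 with the interferon covariate and 0 to 2 without 1 library. At 8 weeks it was 0 and became 1 under DESeq2, the pooled control and the interferon covariate, and 0 to 1 without 1 library. For the average of both ages the count of 3 became 5 with the high-interferon libraries alone and with the interferon covariate, 0 with the low-interferon libraries and 0 to 4 without 1 library. With the high-interferon libraries of 8 weeks alone, 2 members were called between the ages in wild type and 1 in βEedKO. Counts over all genes moved too. At 25 weeks 856 genes were called higher and 378 lower, and 1828 and 821 with the pooled control, 1614 and 901 with the high-interferon libraries, 1614 and 1011 with the interferon covariate and 763 and 393 with the acinar covariate. At 8 weeks 80 higher and 1 lower became 358 and 35 under DESeq2, 431 and 72 with the pooled control, 183 and 10 with the interferon covariate and 0 with the replicate block. On average, 1424 genes became 2903 with the high-interferon libraries, 3025 with the interferon covariate and 127 with the low-interferon libraries. Between ages with the high-interferon libraries, 0 became 1866 in wild type and 281 became 2724 in βEedKO. The heterozygous count at 8 weeks was 0 to 1 without 1 library; those at 25 weeks, between ages and for the interaction stayed 0 without any 1 library.

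The pathway count at 8 weeks, 2, became 4 under DESeq2, 0 with the replicate block, 1 with the high-interferon libraries, 0 with the low-interferon libraries, 1 with the acinar covariate and 0 to 3 without 1 library. At 25 weeks, 6 became 10 with the pooled control, the high-interferon libraries or the interferon covariate, and 2 to 6 without 1 library. Calls over all genes rose in those 3 settings too, from 1234 to 2649, 2515 and 2625. The replicate block changed the calls of Bmp6, Fst, Id3, Gdf10 and Msx1 given above and ended no other call of a member or named pathway gene. With all transcript starts, 7 members in place of 8 were in state L or M.

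Signs turned for small values at 25 weeks: on library size alone Bmpr1a was 0.13, Bmpr2 0.02 and Smad5 0.21 (that scaling moved the median of all genes to 0.27), with the block Smad5 was 0.00, with the acinar covariate Bmp5 was -0.12 and with the interferon covariate Smad1 was -0.02. At 8 weeks Bmp7 was -0.45 with the low-interferon libraries alone. Without 1 library Bmp5 ranged from -0.87 to 0.89 at 25 weeks, from -0.36 to 1.18 at 8 weeks and from -0.08 to 0.79 on average, Bmp7 at 8 weeks from -0.04 to 1.60, and Smad1 and Smad5 at 25 weeks from -0.08 to 0.17 and from -0.26 to 0.04. The cause of these changes was not tested. The 25-week groups of 3 and 2 libraries, and 1 read at 0.218 CPM in the shallowest, limit what can be seen for Gdf6, Gdf7, Grem1 and Nog.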
